A study of Homo sapiens with 24 samples.

Results

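Amino acid transporters are membrane proteins that carry amino acids into and out of cells, and 10 genes for such transporters were examined here in lung adenocarcinoma cells treated with Pirfenidone. The members were the genes SLC7A11, SLC7A5, SLC3A2, SLC1A4, SLC1A5, SLC38A1, SLC38A2, SLC6A9, SLC7A1 and SLC43A1, with every probe that carries one of these names in the array files. They were chosen by name with earlier results of these data known. A count of members beside the share of all probes is therefore a description and not a test. The members are 10 of 25992 genes on the array and were read by 13 of its 34127 probes. SLC38A1, SLC38A2 and SLC6A9 had 2 probes and the other genes had 1. All 13 probes were well above background on all 24 arrays, so none was lost to the filter on dim probes, and none was saturated.

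A549 and H1975 are human lung adenocarcinoma cell lines, and Pirfenidone is an approved drug for idiopathic pulmonary fibrosis. Each line received Pirfenidone at 0.75 mg/ml, the dose the labels give, or PBS, in which the drug was dissolved, and was harvested after 6 h or 24 h. A legend of the study names a higher dose for A549 transcriptome data, and the labels were followed here. Both lines were maintained in RPMI medium with fetal calf serum and L-glutamine, per the study's methods. Line, treatment and time together gave 8 groups of 3 samples. Each of the 24 samples was measured on its own one-color Agilent array, on which the brightness of a spot measures the RNA bound by its probe. Levels are given as log2 signal relative to the 75th percentile of the same array, so a level of 0 is the 75th percentile, and levels of different genes cannot be set against each other.

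On each array 62.7% to 69.5% of probes gave a signal well above background. The study describes its data in general as from independent experiments, but the labels do not say whether the samples of a group came from separate cultures, so the p-values measure the spread between these samples, which may be technical. Dates in the file names divide the arrays into 4 runs, numbered here by date, and each group has 1 sample in each of its 3 runs (runs 1, 2 and 3 for A549, runs 1, 3 and 4 for H1975). No slide carried arrays of both lines, so a difference between lines cannot be told apart from a difference between slides. The position on the slide followed treatment and time in both lines, so position and treatment cannot be told apart either. In H1975 at 24 h the PBS and Pirfenidone arrays of run 3 lay on different slides scanned on different days. Their difference cannot be told apart from one of slide or scan day. The lines were checked by their markers. The epithelial genes EPCAM, KRT8, KRT18, KRT19 and CDH1 were well above background on all 24 arrays. CDKN2A was higher in H1975 than in A549 in PBS by 4.43 on the log2 scale, and the difference of AKR1B10 was -9.21. Of 6 markers of other cell types, COL1A2, PECAM1 and VWF were well above background on all 12 H1975 arrays and on 0 of 12 A549 arrays, LUM on all A549 arrays and 0 of 12 H1975 arrays, PTPRC on all A549 arrays and 11 of 12 H1975 arrays, and CD3E on 0 of 12 and 1 of 12. COL1A2 had a mean level of 1.52 in H1975, and the means of the other 5 genes in either line were -4.62 or lower. Their part in the results was not tested.

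As background, SLC7A11 is the light chain of the exchanger that imports cystine and exports glutamate, and cystine is reduced to cysteine for the synthesis of glutathione. SLC3A2 is the heavy chain that brings light chains such as SLC7A11 and SLC7A5 to the plasma membrane. When amino acids run short or the endoplasmic reticulum is stressed, the transcription factor ATF4 raises genes of amino acid transport and synthesis, and many of these transporters are known ATF4 targets. SLC7A11 is also a known target of NRF2, the transcription factor of the oxidative stress response, and A549 is known for a mutation in KEAP1 that leaves NRF2 active.

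Upstream sequences of the genes were taken from RefSeq (build GRCh38.p14), since the sites of ATF4 and NRF2 lie in such regions, and the 250 bases before each annotated start were searched on both strands. The table held 16 windows for 9 of the 10 genes, and SLC7A11 had no entry. The letters TGATGNAAN, a form of the element bound by C/EBP and ATF proteins, were present in 1 of 16 windows and in 3.13% of all 35116 windows in the table. The letters TGACNNNGC, the core of the antioxidant response element bound by NRF2, were present in 3 of 16 windows and in 10.9% of all windows. A match of letters is a description and does not show a site, and a window without a match says nothing of the factor. Windows of 4 members are shown, with matched letters in capitals. They are the one farthest upstream for each of SLC7A5, SLC3A2 and SLC1A4, which are among the members higher with Pirfenidone in H1975 below, and that of SLC7A1 for its match:
SLC7A5: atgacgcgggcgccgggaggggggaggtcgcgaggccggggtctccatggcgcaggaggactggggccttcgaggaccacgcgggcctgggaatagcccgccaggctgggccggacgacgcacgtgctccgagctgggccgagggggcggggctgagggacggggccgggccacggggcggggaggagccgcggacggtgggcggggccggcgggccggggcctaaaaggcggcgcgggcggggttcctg
SLC3A2: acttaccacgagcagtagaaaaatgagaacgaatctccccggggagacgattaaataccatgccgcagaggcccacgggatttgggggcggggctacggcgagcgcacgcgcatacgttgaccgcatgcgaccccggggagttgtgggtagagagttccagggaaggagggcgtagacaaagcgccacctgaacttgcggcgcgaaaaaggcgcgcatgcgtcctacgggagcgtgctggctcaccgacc
SLC1A4: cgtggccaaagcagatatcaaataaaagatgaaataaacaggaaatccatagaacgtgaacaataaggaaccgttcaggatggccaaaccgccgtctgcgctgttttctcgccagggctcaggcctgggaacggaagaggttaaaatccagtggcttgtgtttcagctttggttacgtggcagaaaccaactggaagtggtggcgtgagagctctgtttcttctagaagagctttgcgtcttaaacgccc
SLC7A1: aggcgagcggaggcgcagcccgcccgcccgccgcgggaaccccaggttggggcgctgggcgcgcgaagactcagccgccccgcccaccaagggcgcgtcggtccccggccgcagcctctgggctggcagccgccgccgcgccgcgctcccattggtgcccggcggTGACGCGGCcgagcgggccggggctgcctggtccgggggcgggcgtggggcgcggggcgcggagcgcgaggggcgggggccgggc

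The 4 windows lie at chr16:87869508-87869757 (minus strand), chr11:62855859-62856108 (plus strand), chr2:64988229-64988478 (plus strand) and chr13:29595689-29595938 (minus strand). The SLC7A1 match began 85 bases before the start. SLC3A2 has 3 windows, and the one at chr11:62881449-62881698 held the second match, 37 bases before its start on the plus strand, within this stretch:
SLC3A2: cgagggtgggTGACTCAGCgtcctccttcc
SLC1A5 also has 3 windows. The one at chr19:46784815-46785064 (minus strand) held the single match to the C/EBP and ATF letters, 97 bases before its start, and the one at chr19:46787294-46787543 (minus strand) held an antioxidant match on the opposite strand, 111 bases before its start. The first of these reads:
SLC1A5: aggaagtggcTGATGCAAGctgtccagggt
The other 12 windows held neither set of letters.

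The levels of the members on the 24 arrays showed a difference between the lines and a response to Pirfenidone. At 6 h the median log2 change of the members was alike in the lines (0.51 in A549, 0.50 in H1975). At 24 h it was larger in H1975 (0.69) than in A549 (-0.02). A probe was counted as passing if its Benjamini-Hochberg adjusted p over all 23827 tested probes was 0.05 or less in limma and its change was at least 2-fold, and each gene was read by its brightest probe.

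**Figure D1:**
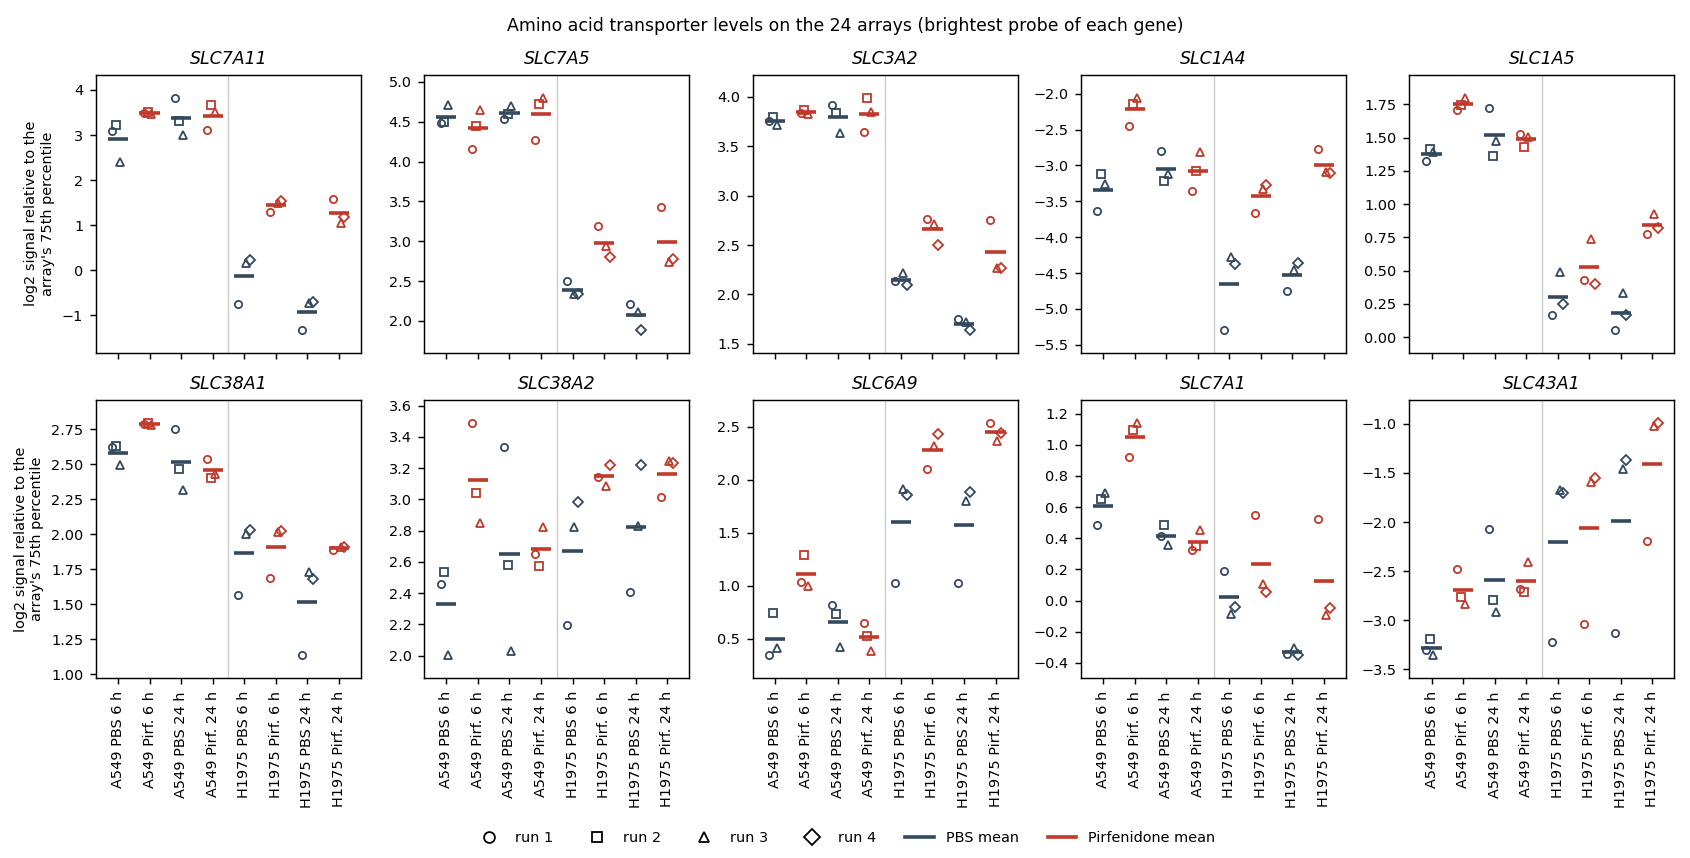
Level of each of the 10 transporters (y axis, log2 signal relative to the 75th percentile of the array) in the 8 groups (x axis), 1 symbol per array with its shape giving the run and a line at the group mean, PBS in blue and Pirfenidone in red. SLC7A11 ranges from -1.32 to 1.57 on the H1975 arrays and from 2.40 to 3.83 on the A549 arrays, and in H1975 all Pirfenidone arrays lie above all PBS arrays of the same time.

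SLC7A11 showed the largest change with Pirfenidone of the 10 members in H1975. In H1975 at 24 h its level was -1.32, -0.73 and -0.70 in PBS and 1.57, 1.05 and 1.18 with Pirfenidone in runs 1, 3 and 4. All 3 treated arrays lay above all 3 PBS arrays, and the array lowest in PBS and the array highest with Pirfenidone were both of run 1. The gene rose 4.55-fold, a log2 change of 2.18 (SE 0.27, 95% confidence interval 1.61 to 2.76, limma adjusted p = 0.000239). Its probe lies at chr4:139085433-139085492 on hg19, the build of the array files.

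At 6 h in H1975 SLC7A11 was already higher with the drug. Its level was -0.76, 0.16 and 0.23 in PBS and 1.29, 1.50 and 1.54 with Pirfenidone in runs 1, 3 and 4, again without overlap. The log2 change was 1.56 (SE 0.27, limma adjusted p = 0.00544), a 2.95-fold rise. The response at 24 h exceeded that at 6 h by 0.62 on the log2 scale (95% confidence interval -0.19 to 1.43), which did not pass (limma adjusted p = 0.965).

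In A549 the level of SLC7A11 was high in every group. At 6 h it was 3.10, 3.22 and 2.40 in PBS and 3.49, 3.51 and 3.46 with Pirfenidone in runs 1, 2 and 3. The treated arrays were close together and all above the PBS arrays, of which run 3 was lowest. The log2 change of 0.58 (95% confidence interval 0.01 to 1.15) did not pass (limma adjusted p = 0.824). At 24 h it was 3.83, 3.32 and 2.99 in PBS and 3.10, 3.67 and 3.50 with Pirfenidone, with overlapping groups and a log2 change of 0.04 (95% confidence interval -0.53 to 0.62).

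Ordered by mean level, the 4 A549 groups came first for SLC7A11, from 3.49 with Pirfenidone at 6 h through 3.42 and 3.38 to 2.91 in PBS at 6 h, and each overlapped the next. The H1975 groups with Pirfenidone followed at 1.44 (6 h) and 1.27 (24 h), which overlapped each other and lay apart from the A549 groups. The H1975 groups in PBS came last, at -0.12 (6 h) and -0.92 (24 h), also overlapping each other and apart from the treated H1975 groups. Treated H1975 cells thus stayed below every A549 array.

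SLC3A2, the partner chain, changed less than SLC7A11. At 24 h in H1975 its level was 1.75, 1.72 and 1.64 in PBS and 2.75, 2.27 and 2.27 with Pirfenidone in runs 1, 3 and 4. The groups lay apart, and the treated array of run 1 was highest. The log2 change of 0.73 (SE 0.12, 95% confidence interval 0.46 to 0.99, limma adjusted p = 0.00371) met the adjusted p but not the 2-fold limit.

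At 6 h in H1975 SLC3A2 was 2.14, 2.21 and 2.10 in PBS and 2.77, 2.71 and 2.50 with Pirfenidone. The log2 change was 0.51 (SE 0.12, limma adjusted p = 0.0487), without overlap. In A549 its levels lay between 3.64 and 3.99 on all 12 arrays, and the log2 change was 0.09 at 6 h (95% confidence interval -0.17 to 0.35) and 0.03 at 24 h (95% confidence interval -0.23 to 0.29). The probe lies at chr11:62652689-62652748.

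SLC7A5, the light chain that exchanges large neutral amino acids such as leucine for glutamine, followed a like course. After 24 h the H1975 levels were 2.22, 2.11 and 1.89 in PBS and 3.43, 2.74 and 2.78 with Pirfenidone in runs 1, 3 and 4. The groups did not overlap, and run 1 was again highest with the drug. The log2 change of 0.91 (SE 0.18, 95% confidence interval 0.53 to 1.29, limma adjusted p = 0.00829) lay just under the 2-fold limit, and without Pirfenidone replicate 1 or 2 it was 1.03 or 1.01 and passed. Without Pirfenidone replicate 3, the array of run 1, it was 0.69 with a limma adjusted p of 0.0613.

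At 6 h in H1975 the log2 change of SLC7A5 was 0.59 (SE 0.18, limma adjusted p = 0.141). In A549 it was -0.14 at 6 h (95% confidence interval -0.52 to 0.24), with 9 of the other members above 0 there, and -0.01 at 24 h. The probe lies at chr16:87863907-87863966. The array also carries a probe for the pseudogene SLC7A5P1, and whether RNA of near-identical copies binds the SLC7A5 probe was not tested.

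SLC1A4, an exchanger of alanine, serine, cysteine and threonine, was the member that passed in both lines. In A549 at 6 h its level was -3.64, -3.12 and -3.25 in PBS and -2.46, -2.15 and -2.06 with Pirfenidone in runs 1, 2 and 3. The groups lay apart, and the difference within a run was 1.18, 0.98 and 1.20. The gene rose 2.17-fold, a log2 change of 1.12 (SE 0.23, 95% confidence interval 0.64 to 1.60, limma adjusted p = 0.0406). This call is borderline, since the adjusted p was 0.0501 with the replicate number as a block, and between 0.0751 and 0.267 without any single array of the 6. At 24 h in A549 the log2 change was -0.04 (95% confidence interval -0.52 to 0.44).

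In H1975 SLC1A4 was -5.29, -4.28 and -4.37 in PBS at 6 h and -3.67, -3.33 and -3.28 with Pirfenidone. The PBS array of run 1 was the lowest of the 24 arrays. The log2 change was 1.23 (SE 0.23, limma adjusted p = 0.00953), and without that array (PBS replicate 1) it was 0.90, which is under the 2-fold limit. At 24 h the levels were -4.75, -4.46 and -4.36 in PBS and -2.77, -3.09 and -3.11 with Pirfenidone. The gene rose 2.90-fold, a log2 change of 1.54 (SE 0.23, limma adjusted p = 0.00135). The probe lies at chr2:65250035-65250094.

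SLC1A5, the related exchanger that carries glutamine, had small but steady changes. The H1975 levels at 24 h were 0.06, 0.34 and 0.17 in PBS and 0.78, 0.93 and 0.82 with Pirfenidone. The groups lay apart, and the log2 change of 0.66 (SE 0.12, limma adjusted p = 0.00429) met the adjusted p alone. At 6 h in A549 it was 1.32, 1.41 and 1.39 in PBS and 1.71, 1.75 and 1.80 with Pirfenidone, a log2 change of 0.38 (SE 0.12, limma adjusted p = 0.321). With cell line and run together as a block, an alternative chosen after seeing the data, that adjusted p was 0.0325. The log2 change was 0.22 in H1975 at 6 h and -0.03 in A549 at 24 h. The probe lies at chr19:47278899-47278958.

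SLC6A9 imports glycine together with sodium and chloride. In H1975 at 24 h its brighter probe was 1.03, 1.80 and 1.88 in PBS and 2.53, 2.37 and 2.45 with Pirfenidone in runs 1, 3 and 4. The PBS array of run 1 stood below the others, whereas the treated arrays were close together. The log2 change was 0.88 (SE 0.22, limma adjusted p = 0.0271), and that of the second probe was 0.76 (limma adjusted p = 0.0400). The 2 probes lie at chr1:44462162-44462221 and chr1:44466499-44466646.

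At 6 h the log2 change of the brighter SLC6A9 probe was 0.69 in H1975 (SE 0.22, limma adjusted p = 0.176) and 0.61 in A549 (SE 0.22, limma adjusted p = 0.529), each without overlap of the groups. The second probe gave 0.84 and 0.57. At 24 h in A549 the brighter probe gave -0.14 and the second -0.17.

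SLC38A1 and SLC38A2 take up small neutral amino acids such as glutamine and alanine together with sodium. SLC38A2, which is known to adapt to amino acid supply, had the second largest change of the members in A549 at 6 h. Its brighter probe was 2.46, 2.53 and 2.003 in PBS and 3.49, 3.04 and 2.85 with Pirfenidone in runs 1, 2 and 3. The groups lay apart, and the log2 change of 0.79 (SE 0.28, 95% confidence interval 0.22 to 1.37) did not pass (limma adjusted p = 0.476). The second probe gave 0.88 (limma adjusted p = 0.227).

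In H1975 the log2 change of SLC38A2 was 0.48 at 6 h and 0.34 at 24 h by the brighter probe and 0.61 and 0.15 by the second, and none passed. SLC38A1 changed by 0.20 in A549 and 0.04 in H1975 at 6 h, and by -0.06 and 0.39 at 24 h. Among H1975 samples at 24 h, the PBS arrays of SLC38A1 were 1.14, 1.73 and 1.68 and the treated arrays 1.89, 1.91 and 1.91, so the treated arrays were nearly equal and the PBS array of run 1 stood low. The brighter probes lie at chr12:46582007-46582066 for SLC38A1 and chr12:46752710-46752769 for SLC38A2.

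SLC7A1 carries the cationic amino acids arginine and lysine. In A549 at 6 h it was 0.48, 0.65 and 0.69 in PBS and 0.92, 1.095 and 1.14 with Pirfenidone. The difference within a run was 0.44, 0.44 and 0.45, while the runs differed in level. The log2 change of 0.44 (SE 0.15) did not pass (limma adjusted p = 0.422), and with cell line and run as a block its adjusted p was 0.0479. In H1975 the log2 change at 6 h was 0.22, and that at 24 h was 0.46 with a limma adjusted p of 0.0718. The probe lies at chr13:30084093-30084152.

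SLC43A1, a facilitative carrier of large neutral amino acids, was set apart by run in H1975. In PBS at 24 h it was -3.14, -1.46 and -1.37, and with Pirfenidone -2.19, -1.03 and -0.99, in runs 1, 3 and 4. In each of the 4 H1975 groups the array of run 1 lay between 1.18 and 1.72 below the mean of the other arrays. The log2 change at 24 h was 0.58 (SE 0.49, limma adjusted p = 0.546), and the difference within runs was 0.94, 0.44 and 0.38. With cell line and run as a block the adjusted p was 0.0214. In A549 the log2 change was 0.60 at 6 h (SE 0.49) and -0.01 at 24 h. The probe lies at chr11:57252301-57252360.

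Counts over the 10 genes, which were chosen with earlier results of these data known, are a description. In A549 at 6 h 1 of 10 passed (SLC1A4), where 0.176% of the 23827 probes tested passed in either direction. In A549 at 24 h 0 of 10 passed in limma, with a background of 0.0126%, and 0 had an unadjusted p under 0.05, against 0.953% of all probes. In H1975, SLC7A11 and SLC1A4 passed at 6 h (background 0.491%) and at 24 h (background 1.89%), and all these changes were increases. By the unadjusted p of the methods' t-test, paired here by run, 8 of 10 members met 0.05 in A549 at 6 h (17.4% of all probes) and 0 at 24 h (1.63%). In H1975 the numbers were 6 (22.0%) and 5 (27.2%), and after Benjamini-Hochberg adjustment 0 did in each.

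By the adjusted p alone, 3 of 10 were higher in H1975 at 6 h (SLC7A11, SLC1A4 and SLC3A2), against 1.41% of all probes in either direction. At 24 h 6 of 10 were higher (SLC7A11, SLC1A4, SLC3A2, SLC1A5, SLC7A5 and SLC6A9), against 6.26% of all probes. With the replicate number, run, slide, or line and run as a block, the number of members meeting it became 4, 3, 5 and 5 after 6 h, and 7, 7, 8 and 9 after 24 h. SLC7A1 met the adjusted p at 24 h under all 4 blocks. In A549 the median log2 change of the 10 genes was 0.51 at 6 h and -0.02 at 24 h, against -0.01 and -0.02 over all tested probes. In H1975 it was 0.50 at 6 h and 0.69 at 24 h, against 0.05 and 0.02.

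**Figure D2:**
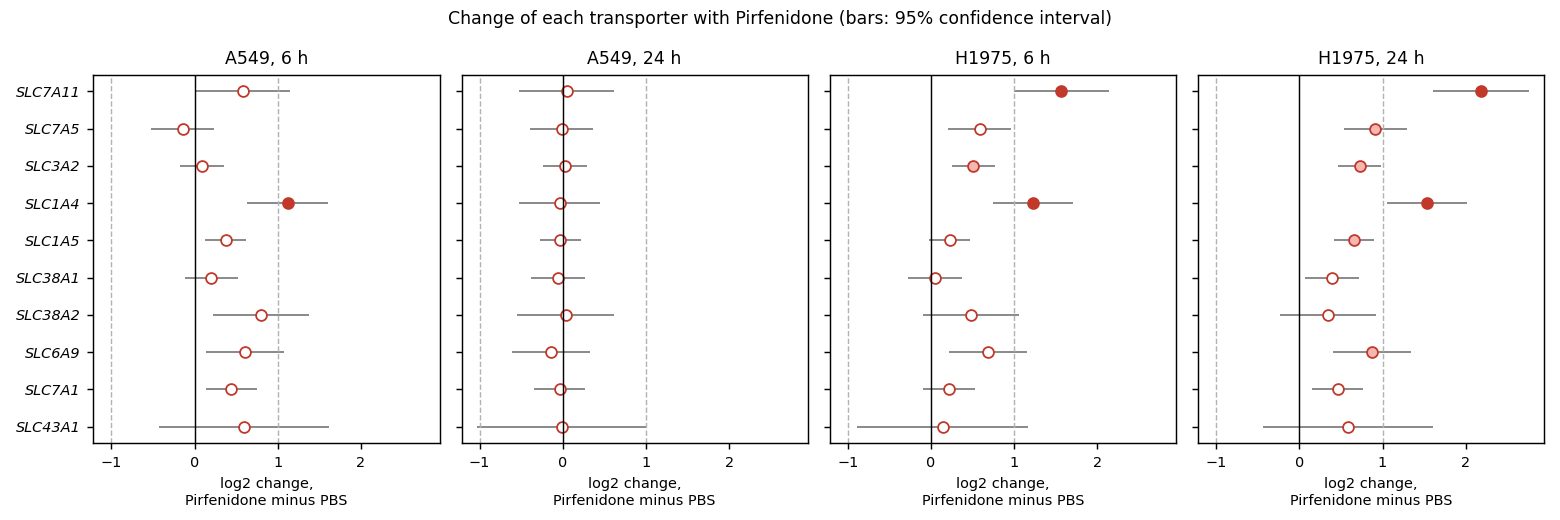
Log2 change with Pirfenidone (x axis) of the 10 transporters (y axis) in each line at each time, with the 95% confidence interval from the limma fit. Dark points passed the adjusted p and the 2-fold limit (dashed lines), pale points the adjusted p alone and open points neither, and in A549 at 24 h all 10 points lie between -0.14 and 0.04.

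Groups that did not overlap were also counted, without a test. In A549 at 6 h all Pirfenidone arrays lay above all PBS arrays for 9 of 10 genes (each except SLC7A5), and this held for 7.03% of all probes. In A549 at 24 h it held for 0 of 10 genes and 0.563% of probes. In H1975 it held at 6 h for 6 of 10 genes and 10.6% of probes (SLC7A11, SLC7A5, SLC3A2, SLC1A4, SLC38A2 and SLC6A9), and at 24 h for 8 of 10 genes and 16.3% of probes (each except SLC38A2 and SLC43A1). No gene had all its treated arrays below all PBS arrays in any of the 4 comparisons.

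Set side by side within runs, the A549 arrays at 24 h differed by run. In run 1 all 10 genes were lower with Pirfenidone, with a median difference of -0.27. In run 2, 6 of 10 were higher with a median of 0.08, and in run 3, 9 of 10 were higher with a median of 0.16. SLC7A11 differed by -0.72, 0.35 and 0.51 and SLC38A2 by -0.69, -0.00 and 0.79 in runs 1, 2 and 3. The PBS array of run 1 was the highest of the 3 PBS arrays for 8 of the 10 genes, each except SLC7A5 and SLC7A1. With the pair of run 1 left out, the log2 change of SLC7A11 in A549 at 24 h was 0.43, and no member passed. Why this pair ran the other way was not tested.

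In the other 3 comparisons the runs pointed the same way for nearly all genes. In A549 at 6 h 9 of 10 genes were higher with the drug in each run, with SLC7A5 the exception. In H1975 at 24 h all 10 were higher in each run, and the median difference was 0.97 in run 1, 0.56 in run 3 and 0.59 in run 4. SLC7A11 differed by 2.89 in run 1 and by 1.78 and 1.88 in runs 3 and 4 at 24 h, so the direction was shared and the size was larger in run 1.

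**Figure D3:**
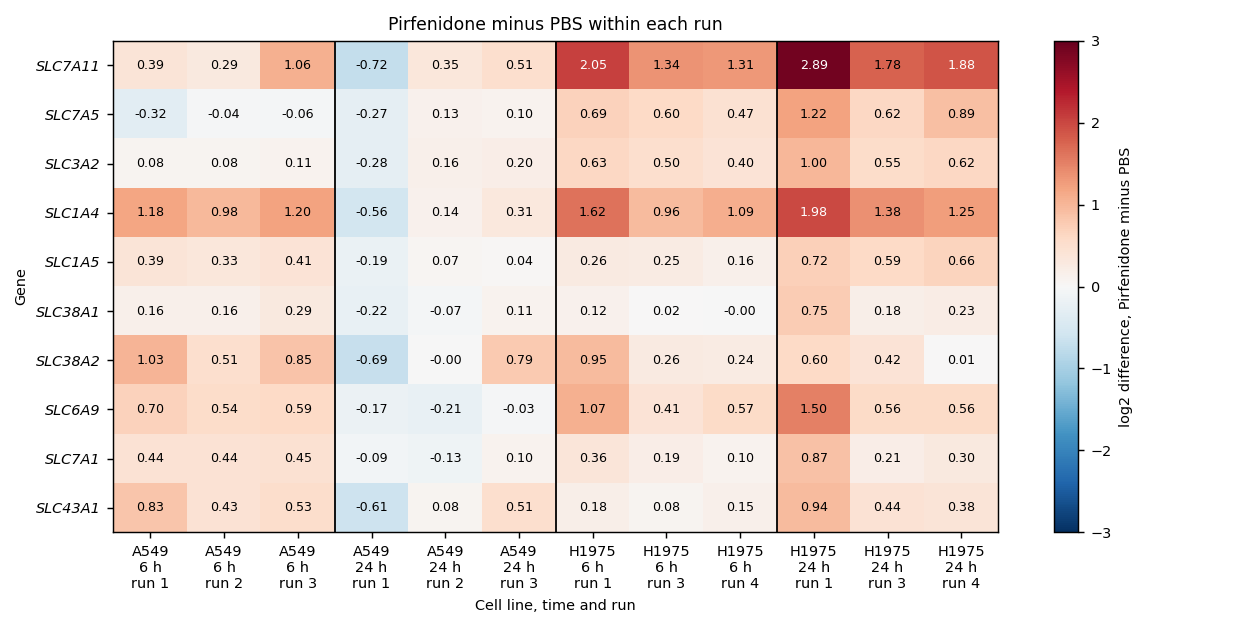
Log2 difference between the Pirfenidone and the PBS array of the same run for each transporter (rows) in each line, time and run (columns), with red for higher and blue for lower with Pirfenidone. The A549 column of run 1 at 24 h is negative for all 10 genes, and the SLC7A11 differences in H1975 range from 1.31 to 2.89.

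The difference between the lines in their response was tested directly as an interaction. At 24 h SLC7A11 responded more in H1975 than in A549, by 2.14 on the log2 scale (SE 0.39, 95% confidence interval 1.33 to 2.95, limma adjusted p = 0.0224), and was the 1 member of 10 that passed, against 0.193% of all probes. SLC1A4 had a difference of 1.57 (SE 0.33) with an adjusted p of 0.0502 in limma, just above the threshold, and with the replicate number as a block both genes passed. The other 8 genes also had estimates above 0, from 0.31 for SLC38A2 to 1.01 for SLC6A9, and did not pass.

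This interaction rests partly on the run 1 arrays of both lines. With the A549 pair of run 1 left out the difference of SLC7A11 was 1.76 and its limma adjusted p was 0.158. The adjusted p was also above 0.05, between 0.0581 and 0.0758, without any single 24 h array of run 1. These arrays are replicate 3 of PBS and of Pirfenidone in A549 and in H1975. In run 1 SLC7A11 differed between Pirfenidone and PBS by 2.89 in H1975 and by -0.72 in A549. In run 3, the other run with arrays of both lines, the values were 1.78 and 0.51. At 6 h 0 of 10 genes passed in limma (background 0.0336%), and 3 had an unadjusted p under 0.05, against 2.63% of all probes. These were SLC7A11 with a difference of 0.98 (95% confidence interval 0.18 to 1.79), SLC7A5 with 0.73 and SLC3A2 with 0.42. For SLC1A4 the difference between lines at 6 h was 0.11 (95% confidence interval -0.58 to 0.79).

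Between 6 h and 24 h of treatment, the change in response passed for 0 of 10 genes in A549 (background 0.0294%) and 0 of 10 in H1975 (background 0.0042%) in limma. At an unadjusted p under 0.05 there were 4 genes in A549 and 1 in H1975, against 3.04% and 5.86% of all probes. The estimates in A549 were below 0 for 9 of 10 genes and lowest for SLC1A4, at -1.16 (95% confidence interval -1.84 to -0.48, limma adjusted p = 0.573). In H1975 they were above 0 for 9 of 10 genes, with SLC7A11 highest at 0.62. The mean SLC7A11 level in H1975 was lower at 24 h than at 6 h in both treatments. It went from -0.12 to -0.92 in PBS and from 1.44 to 1.27 with Pirfenidone.

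The lines, which lay on separate slides, also differed without the drug, and line and slide cannot be told apart here. In PBS, averaged over both times, 6 of 10 genes passed between the lines, with a background of 33.3% of all probes, so a difference of this kind was common on the array. SLC7A11 was 12.7-fold lower in H1975 than in A549, a log2 difference of -3.66 (SE 0.19, limma adjusted p = 2.37e-12). SLC7A5 was lower by 5.11-fold (log2 -2.35, limma adjusted p = 3.66e-12) and SLC3A2 by 3.61-fold (log2 -1.85, limma adjusted p = 4.87e-13). The cystine exchanger, its partner chain and the leucine exchanger thus all had their lower level in H1975.

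SLC1A4 (log2 -1.40) and SLC1A5 (log2 -1.20) also passed as lower in H1975. SLC6A9 passed as higher, by 1.01 with the brighter and 1.02 with the second probe (limma adjusted p = 1.37e-05 and 5.88e-06). It lay on the 2-fold limit, and leaving out any of 7 of the 12 PBS arrays brought it below the limit, to between 0.93 and 0.98. The probes of SLC38A1 fell on both sides of the 2-fold limit, with -0.86 for the brighter and -1.37 for the second. SLC7A1 (-0.67), SLC43A1 (0.85) and SLC38A2 (0.25) did not reach the limit.

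**Figure D4:**
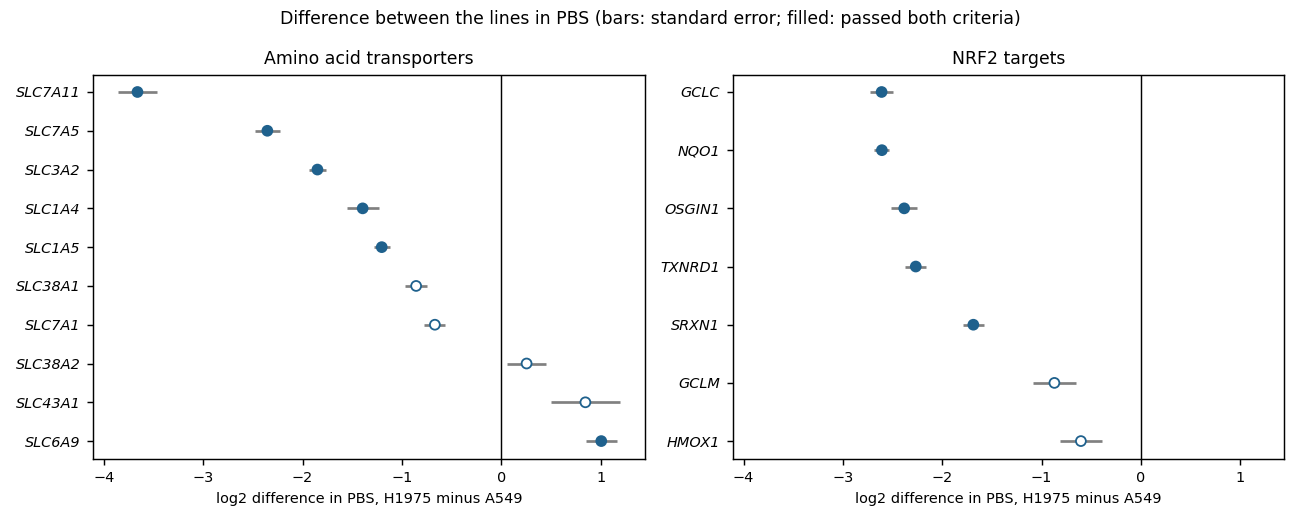
Log2 difference between H1975 and A549 in PBS (x axis, both times averaged, 6 arrays per line, bars give the standard error) for the 10 transporters and for 7 known NRF2 targets. Filled points passed both criteria, and SLC7A11 (-3.66) lies below each of the 7 NRF2 targets, which range from -2.61 to -0.60.

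Time in culture with PBS alone gave no member that passed. From 6 h to 24 h 0 of 10 genes passed in limma in A549 (background 0.109%) and 0 of 10 in H1975 (background 0.315%). At an unadjusted p under 0.05 there were 0 genes in A549 and 4 in H1975, against 8.49% and 10.6% of all probes. In H1975 SLC7A11 changed by -0.80 (SE 0.27, limma adjusted p = 0.235), SLC3A2 by -0.45 (limma adjusted p = 0.117), SLC7A1 by -0.35 and SLC38A1 by -0.35. In A549 SLC7A11 changed by 0.47 (95% confidence interval -0.10 to 1.04).

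Other amino acid transporters, listed here as those of the plasma membrane, were set beside the members. The list also holds some carriers known mainly from lysosomes or vesicles, so it does not divide transporters cleanly by membrane. Members and lists were chosen with earlier results of these data known, so a difference between them is a description and not a test. Of 40 such genes on the array, 20 were tested, and 0 passed in limma in any of the 4 comparisons of Pirfenidone with PBS, and the count at an unadjusted p under 0.05 was 2 and 0 in A549 (6 h, then 24 h) and 3 and 3 in H1975. Over all probes these shares were 6.01% and 0.953% in A549 and 11% and 22.0% in H1975. The share of all probes that passed was 0.176% and 0.0126% in A549, and 0.491% and 1.89% in H1975. In the same order, the median log2 changes of these transporters were 0.07, -0.00, 0.06 and 0.04. Their changes in H1975 at 24 h ran from -0.49 to 1.27. SLC7A6, another light chain of SLC3A2, met the adjusted p alone in H1975 at 6 h with a log2 change of -0.80 (limma adjusted p = 0.0415).

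Of 15 listed carriers of mitochondrial, vesicular and lysosomal membranes, 10 were tested and 0 passed in limma in these 4 comparisons. Since 0.0126% to 1.89% of all probes passed there, 0 of 10 does not set this list apart from other probes. In A549 (6 h, then 24 h) 0 and 0 genes had an unadjusted p under 0.05, against 6.01% and 0.953% of all probes. In H1975 the numbers were 1 and 4, against 11% and 22.0%. SLC25A18, a mitochondrial glutamate carrier, met the adjusted p alone in H1975 at 24 h (log2 0.68, limma adjusted p = 0.0458). Between the lines in PBS, 7 of the 20 tested genes of the plasma membrane list passed as lower in H1975 and 1 as higher. Of all probes 33.3% passed there in either direction, so such differences were common. Among the lower genes were SLC3A1, a heavy chain for the uptake of cystine and cationic amino acids (log2 -5.72), and SLC7A7, another light chain of SLC3A2 (log2 -5.19).

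Among 8 genes of the amino acid response, the pathway of ATF4, some passed as higher with Pirfenidone in 3 of the 4 comparisons. This list too was chosen with earlier results of these data known, so its counts are a description. Its median log2 change was 1.08 in A549 at 6 h, and 1.09 and 1.53 at the 2 times in H1975. In A549 at 6 h 3 of 8 passed, all higher, against 0.176% of all probes in either direction. These were CHAC1, which degrades glutathione, with a log2 change of 2.29 (SE 0.39, limma adjusted p = 0.00619), DDIT3, a transcription factor of endoplasmic reticulum stress, with 2.19 (limma adjusted p = 0.0233) and TRIB3, a pseudokinase induced by ATF4, with 1.24 (limma adjusted p = 0.0258). With single arrays left out 0 to 3 of the 8 passed, 0 without PBS replicate 3 or Pirfenidone replicate 3, and CHAC1 alone without PBS replicate 1 or 2 or Pirfenidone replicate 2. In A549 at 24 h 0 of 8 passed in limma (0.0126% of all probes) and 0 had an unadjusted p under 0.05 (0.953%). There 7 of 8 estimates were below 0, with a median of -0.10.

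In H1975 5 of 8 passed at 6 h (0.491% of all probes) and 6 of 8 at 24 h (1.89%), all higher. CHAC1 rose by 3.20 and 2.77 on the log2 scale, and ASNS, the enzyme that makes asparagine, by 1.17 and 1.89 (limma adjusted p = 0.00582 and 5.72e-05). DDIT3 rose by 2.08 and 1.71, SESN2, a stress protein that restrains mTORC1, by 1.86 and 1.79, and TRIB3 by 1.0003 and 1.08. ATF3, a stress-induced transcription factor, passed at 24 h (log2 1.35) and not at 6 h (log2 1.02, limma adjusted p = 0.0913). ATF4 itself changed by 0.75 and 0.69, which met the adjusted p alone, and CEBPB by 0.82 and 0.57. With single arrays left out the count was 2 to 4 at 6 h and 2 to 6 at 24 h, and CHAC1 and ASNS passed each time. At 6 h it was 2 without PBS replicate 3 or Pirfenidone replicate 3 and 3 without PBS replicate 2, and at 24 h it was 2 without Pirfenidone replicate 3. TRIB3 lay on the 2-fold limit at 6 h and did not pass without any single array of the 6.

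In the difference between lines at 24 h 2 of 8 passed, against 0.193% of all probes. They were CHAC1 (3.08, limma adjusted p = 0.0120) and ASNS (2.02, limma adjusted p = 0.00378). These genes and the transporters were measured on the same arrays, and the relation between the 2 lists was not tested.

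Targets of NRF2 were examined in the same way. In the 4 comparisons of Pirfenidone with PBS 0 of 7 passed in limma. Of all probes, 0.176% and 0.0126% passed in A549 (6 h, then 24 h) and 0.491% and 1.89% in H1975. At such shares, 0 of 7 does not set these genes apart from other probes. In the same order, 0, 0, 1 and 1 genes had an unadjusted p under 0.05, against 6.01%, 0.953%, 11% and 22.0% of all probes. The median log2 change was 0.04, 0.01, 0.04 and 0.10. In H1975 at 24 h, where SLC7A11 rose by 2.18, NQO1 changed by 0.10, GCLM by -0.17, GCLC by 0.37, TXNRD1 by -0.03, SRXN1 by 0.22, OSGIN1 by 0.04 and HMOX1 by 0.48. HMOX1 had the largest of these changes, and its limma adjusted p was 0.366. The relation between these genes and SLC7A11 was not tested.

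Between the lines in PBS, 5 of 7 NRF2 targets passed as lower in H1975, where 33.3% of all probes passed in either direction. GCLC differed by -2.61, NQO1 by -2.61, OSGIN1 by -2.38, TXNRD1 by -2.27 and SRXN1 by -1.69. GCLM (-0.87) and HMOX1 (-0.60) were lower without reaching 2-fold.

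**Figure D5:**
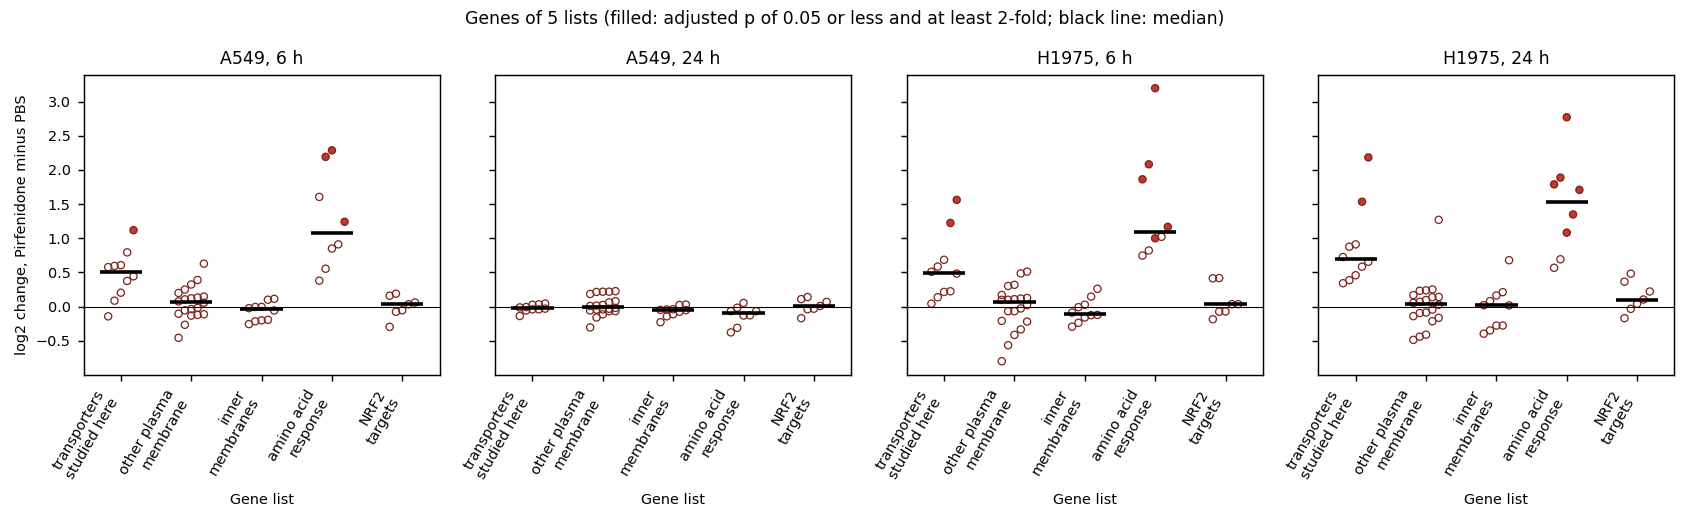
Log2 change with Pirfenidone (y axis) of the tested genes of 5 lists (x axis) in each line and time, 1 point per gene, filled where it passed both criteria, with a black line at the median. The transporters and the amino acid response genes lie mostly above 0 in 3 of the 4 panels and near 0 in A549 at 24 h, and the median of the NRF2 targets stays between 0.01 and 0.10.

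The genes with the pattern most like SLC7A11 were sought over the 24 arrays, after each value was taken relative to the mean of its cell line, among 14601 genes well above background on all arrays. The highest Pearson r was 0.92, for PSAT1, an enzyme of serine synthesis. A transcript named by its Ensembl number alone (r = 0.89), ZNF624 (0.88), C9orf91 (0.88) and SLC3A2 (0.88) followed. For SLC3A2 the leading genes were SLC7A11 (0.88), LACC1 (0.86), SLC7A5 (0.86), an unnamed transcript (0.83) and RNF216 (0.82). These correlations describe arrays that share groups and runs and carry no test.

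Among the members themselves 42 of 45 pairs had an r above 0 on this measure, with a median of 0.57. No share over all gene pairs is set beside this count. Treatment was left in these values, so genes that rose with the drug tend to have a positive r. A link between members beyond that rise was not tested. The highest r of a member pair was between SLC1A4 and SLC6A9 (0.90). The lowest was between SLC7A1 and SLC43A1 (-0.28), which differed between runs in H1975 in opposite directions. On the H1975 arrays of run 1 SLC7A1 was higher than in the other runs by 0.32 on average (range over groups -0.02 to 0.59), whereas the mean of SLC43A1 was -1.48 relative to the other runs.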

How the data were processed

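Expression was measured on 24 one-color Agilent arrays, 1 per sample, with groups taken from the sample labels. Per the file headers, the deposited scanner files hold spot intensity values from Agilent Feature Extraction 11.5.1.1, background-subtracted but not scaled between arrays, with probe positions on hg19. A second deposited file gives the authors' own log2 values, with each probe centered on its median. Column medians of that file were -0.163 to 0.156, its differences between arrays matched those of the scanner values (r of at least 0.999999 across probes), and the sources used here do not state the constant taken off each array.

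Spot intensity was converted to log2 and expressed relative to the 75th percentile of 43118 non-control spots on the same array. Spots with an outlier mark were dropped, and the rest averaged by probe. For testing, a probe had to be well above background on each of the 3 arrays of some group, which 23827 of 34127 were. All 8 groups entered 1 limma fit (version 3.58.1, R 4.3.3, 16 residual degrees of freedom) with Benjamini-Hochberg adjustment. To pass, a probe needed an adjusted p of 0.05 at most together with a log2 change of 1 or more in size. Westfall-Young permutation, the study's adjustment, was not used, since 3 against 3 samples allow no p below 0.1. The steps were tested on simulated data. On arrays, the number of samples limits the precision.

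Each gene was read by its brightest probe. Genes named were the members, the amino acid response and NRF2 lists, genes of other lists that passed, the 5 genes most like SLC7A11 and like SLC3A2, and, chosen after their values were seen, SLC7A6, SLC25A18, SLC3A1 and SLC7A7. The NRF2 list first held 1 more gene, which is not reported here. The members and lists were chosen with earlier results of these data known. Symbols follow the array files, and exons are not given because no hg19 annotation was used. Alternatives were normexp (offset 50), quantile normalization, the authors' values, looser and stricter filters, blocks for replicate number, slide or run, separate fits of the arrays compared, Holm adjustment, no fold limit, the mean of a gene's probes, the methods' t-test (the study names a paired t-test for selected genes of its transcriptome data, and pairs were formed here by run) and single arrays left out. A block for line with run, and the removal of the A549 pair of run 1 at 24 h, were also tried.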

Additional observations from a re-analysis of the deposited data

Results flagged for a closer look

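In the tests of a difference in response between lines, SLC7A11 and 2 genes of the amino acid response passed at 24 h. The difference was 2.14 on the log2 scale for SLC7A11, 3.08 for CHAC1 and 2.02 for ASNS, each with the larger response in H1975 and 3 samples per group. Without the A549 pair of run 1 these values were 1.76 for SLC7A11 (limma adjusted p = 0.158), 2.57 for CHAC1 (limma adjusted p = 0.0558) and 1.64 for ASNS (limma adjusted p = 0.0156).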

How the results depend on the processing

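No change of a transporter that passed reversed its direction under any alternative run, and the counts that passed moved as follows. In A549 at 6 h the count of 1 became 0 under normexp, without the filter on dim probes, with the replicate block, in a fit of the compared arrays alone, under Holm and by the methods' t-test after Benjamini-Hochberg, and leaving out any single array also gave 0 (range 0 to 0). In H1975 at 6 h the count of 2 became 0 in the fit of the compared arrays, under Holm and by that t-test, and was 1 to 2 with single arrays left out, 1 without PBS replicate 1. With no fold limit it was 3. In H1975 at 24 h it became 1 under Holm, 0 by the t-test and 6 with no fold limit, and was 2 to 3 with single arrays left out, SLC6A9 passing at 1.03 without PBS replicate 2. Between lines, the count of 1 for the response at 24 h became 0 under normexp, in the fit of the compared arrays, under Holm and without the A549 pair of run 1 (an alternative chosen with earlier results known). It became 2 under quantile normalization, the stricter filter, the replicate block, the slide block, the run block and the mean of all probes, 3 with line and run as a block (chosen after seeing the data), and was 0 to 2 with single arrays left out. The count between lines in PBS was 5 to 9. The causes were not tested.

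Of the 8 amino acid response genes, the counts of 3, 5 and 6 (A549 at 6 h, H1975 at 6 h and 24 h) became 0, 0 and 2 in the fit of the compared arrays, 0, 1 and 2 under Holm, 0 in each by that t-test and 2, 3 and 6 under normexp. Under normexp the median of all probes in H1975 at 6 h was 0.29 against 0.05. Replicate numbers marked 1 run in A549 and at 24 h in H1975, and different runs at 6 h in H1975. The correlation of same-numbered deviations was 0.58 to 0.70 and -0.10 to 0.39 in A549 (6 h, then 24 h) and -0.68 to 0.43 and 0.46 to 0.72 in H1975, so the numbers do not pair all samples. By run it was 0.50 to 0.82 in H1975 at 6 h and the same as by number in the other 3 comparisons, where numbers and runs coincide, so samples of a run deviated together except in A549 at 24 h. With the replicate block 0 members passed in A549 at 6 h and 2 in the difference between lines at 24 h, and the other counts were the same.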
